A study of Drosophila melanogaster with 6 samples.

Results

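Cultured Drosophila S2 cells treated with PJ34, a small molecule that blocks PARylation, were compared with untreated S2 cells. The comparison used 4 of the 6 RNA-seq libraries of the series: 2 from PJ34-treated cells and 2 from untreated controls. Transcript values were summed for each gene, and of 14012 genes, the 7315 whose FPKM averaged at least 1 across these libraries were taken. FPKM counts the sequenced fragments of a transcript per unit of its length and of library size. S2 is a line from late embryos with properties of hemocytes, the blood cells of the fly, and all 6 libraries came from this line. The PJ34 cells received final concentrations of 10 or 0.3 µM and, per the study's methods, were kept with the inhibitor for 10 h. The labels give 1 library per dose, but the columns of the table do not say which is which, so the libraries are called PJ34 library 1 and PJ34 library 2 as numbered there and no dose comparison was made. The 2 remaining libraries came from cells given double-stranded RNA against PARP1 (PARP1 KD), in amounts of 100 and 500 whose unit is nanograms in the titles but micrograms in the treatment labels. They are used here as a second reference. The study describes the libraries of each condition as biological replicates, while the labels give the PJ34 and PARP1 KD libraries different doses, so p-values measure the spread between these libraries, dose included. Where the 2 PJ34 libraries differ, dose and replicate cannot be told apart.

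PARylation is the attachment of chains of ADP-ribose, taken from NAD, to proteins. In the fly the main enzyme is PARP1, a nuclear protein that binds nucleosomes and DNA ends, Parg removes the chains, and Tnks (tankyrase) is a second enzyme that makes them. PARP1 is known in flies for opening chromatin at heat shock loci and for a part in immune gene expression. PJ34 occupies the NAD site of the enzyme, so the protein is still present while less of its product is made. The study's question was about splicing: whether changes in alternative splicing need the PARylation activity of PARP1. Here only gene levels were compared.

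The 4 libraries were of similar depth but differed by transcript length. From the steps between the lowest values, each FPKM of a transcript of 1000 bases stood for 22.5 to 27.0 fragments, and relative depth lay between 0.914 and 1.11 of control library 1. Pearson's r of log2(FPKM + 1) across genes, which are not independent, was 0.966 for the controls and 0.938 for the PJ34 pair. In genes with transcripts over 4000 bases, PJ34 library 2 lay a median of 2.33 (log2) below the mean of the controls and PJ34 library 1 lay 0.56 below it, while control library 2 lay 0.97 below control library 1. Over all genes tested the median difference of PJ34 from control was -1.08 on the log2 scale, against -0.43 for PJ34 library 1 alone and -0.04 after the length trend of each library was subtracted. Medians of gene lists below are therefore to be read against these medians of all genes. Of the 10 hemocyte markers, all were above 1 FPKM in at least 1 of the 4 libraries. Their sum was 1267 and 1450 FPKM in the controls, 832 and 129 under PJ34. Most of the sum in the controls came from Col4a1 (633 and 808 FPKM) and vkg (397 and 314 FPKM). Under PJ34 these had 376 and 39.0 FPKM and 230 and 16.1 FPKM. The markers did not move together: Sr-CI lay above both controls, Pxn, NimC1 and eater overlapped, and the others lay below. In bulk RNA fewer cells of a type and less RNA per cell cannot be told apart. All 7 fat body and all 4 ovarian follicle markers stayed under 1 FPKM in the 4 libraries, as did 6 of 8 muscle and 4 of 6 neuronal markers. Of the germline markers, bam and bgcn stayed under 1 FPKM, whereas osk and aub exceeded it in at least 1 library.

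**Figure D1:**
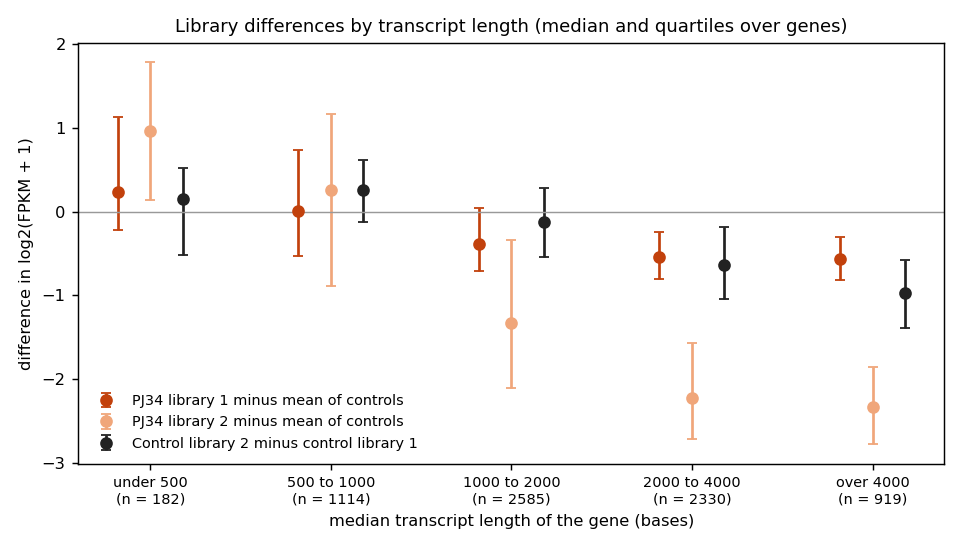
Difference in log2(FPKM + 1) by median transcript length of the gene, for each PJ34 library against the mean of the controls and for control library 2 against control library 1. Points are medians over genes and bars are quartiles. In transcripts over 4000 bases the medians were -0.56 for PJ34 library 1, -2.33 for PJ34 library 2 and -0.97 between the controls.

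Few genes passed the test with 2 libraries against 2. In limma with Benjamini-Hochberg adjustment over all 7315 genes, 12 genes (0.164%) were higher and 3 (0.041%) were lower under PJ34 at an adjusted p under 0.05. At an unadjusted p of at most 0.05 there were 311 higher and 1028 lower. With 2 libraries per group the smallest p of an exact two-sided permutation test is 0.333, so none was used for single genes. Described by position alone, both PJ34 libraries lay above both controls in 980 genes (13.4%) and below both in 3924 (53.6%). A separation of at least 2-fold on the (FPKM + 1) scale between every PJ34 library and every control held for 222 genes above (3.03%) and 322 genes below (4.4%). PJ34 library 1 alone lay at least 2-fold above both controls in 290 genes (3.96%) and below both in 337 genes (4.61%), sets that by construction hold the 222 and 322 genes. Of the 222 genes, 49 had a control mean under 1 FPKM and so entered the comparison through their PJ34 values. Another 17 of them were copies of the histone gene His4, which share sequence, so their separate values are uncertain. Strand is not given in the table, and the reads of 2669 genes tested could overlap those of another gene at the same place.

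The enzymes of poly(ADP-ribose) metabolism did not pass the test. Parp1 (CG40411) lies at 1768645 to 2027212 of 3RHet in the dm3 build, to which all positions refer. Its level was 51.6 and 29.9 FPKM in the controls, 39.3 and 50.2 under PJ34, and 16.7 and 10.2 under PARP1 KD. The PJ34 values lay within the range of the controls, and both PARP1 KD values lay below both groups. The log2 difference of PJ34 from control was 0.17 ± 0.64 (standard error, SE; limma, adjusted p 0.850), and that of PJ34 from PARP1 KD was 1.68 (adjusted p 0.132). The Parp1 locus overlaps 10 other genes of the table. Parg had 8.71 and 4.27 FPKM in controls and 3.66 and 0.594 under PJ34, a log2 difference of -1.39 ± 0.89 (limma, adjusted p 0.321). Tnks had 6.71 and 3.27 FPKM in controls and 3.44 and 0.389 under PJ34, so the groups overlapped.

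The gene with the largest difference was TotM, a member of the Turandot family of small secreted proteins that flies make under heat, infection and other stress. TotM (CG14027, 5329856 to 5330466 of 2L) had 23.8 and 49.3 FPKM in controls and 12990 and 20231 under PJ34. It had 40.8 and 39.5 FPKM under PARP1 KD, within the range of the controls. TotM rose by 8.84 ± 0.57 on the log2 scale (limma, adjusted p 8.24e-08), a ratio of 454 between the group means. Against PARP1 KD the difference was 8.62 (adjusted p 1.0e-11). TotA, the other Turandot gene tested, had 0.809 and 1.67 FPKM in controls and 32.7 and 44.5 under PJ34, a separation of 4.15 ± 0.95 that did not pass the threshold (limma, adjusted p 0.0953).

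The other genes that rose had varied roles. The cell death gene rpr (reaper, CG4319, 18390652 to 18391503 of 3L), whose product frees caspases by binding their inhibitors, had 7.29 and 6.36 FPKM in controls and 86.0 and 176 under PJ34. It rose by 3.99 ± 0.69 (limma, adjusted p 0.0170), and PARP1 KD values were 7.14 and 8.64 FPKM. Both PJ34 values lay outside the other 4 libraries, which ranged from 6.36 to 8.64 FPKM. CG4793 (15923394 to 15929049 of 2L), a serine protease gene, had 0.329 and 2.97 FPKM in controls and 154 and 76.0 under PJ34, a rise of 5.57 ± 0.89 (limma, adjusted p 0.00748). lectin-28C (CG7106, 7857089 to 7857931 of 2L), of the carbohydrate-binding C-type lectins, had 34.5 and 121 FPKM in controls and 460 and 646 under PJ34, a rise of 3.05 ± 0.60 (limma, adjusted p 0.0397). As a ratio the controls differed more from each other than the PJ34 libraries did. Obp99c (CG7584, 25511455 to 25512504 of 3R), a secreted odorant-binding protein, had 2.54 and 11.6 FPKM in controls and 97.6 and 136 under PJ34, a rise of 4.12 ± 0.76 (limma, adjusted p 0.0258).

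A pair of cytoskeletal genes rose as well. TpnC4 (CG12408, 1390940 to 1395371 of 2R), a troponin C that binds calcium in muscle, had 1.03 and 3.72 FPKM in controls and 84.6 and 137 under PJ34, a rise of 5.14 ± 0.83 (limma, adjusted p 0.00748). Beside it, the summed level of the 8 muscle markers was 6.53 and 4.25 FPKM in the controls and 2.20 and 1.08 under PJ34. Mlc2 made up most of the sum in the controls (5.93 and 3.42 FPKM, against 0.668 and 0.377 under PJ34). As 6 of the 8 stayed under 1 FPKM, the sum says little about the other markers. Arpc3B (CG8936, 16998605 to 16999885 of X), a subunit of the Arp2/3 complex that nucleates branched actin, had 7.05 and 11.1 FPKM in controls and 173 and 254 under PJ34, a rise of 4.42 ± 0.63 (limma, adjusted p 0.00235). CG41562 and CG40813, on unplaced sequence (U), followed almost the same pattern, reaching 267 and 356 FPKM and 224 and 299 FPKM with the inhibitor, whereas no control exceeded 14.6 and 12.5 FPKM. They rose by 4.78 ± 0.61 and 4.74 ± 0.62 (limma, adjusted p 0.00086 and 0.00107). Whether these genes share reads was not tested.

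The remaining genes that rose, CG6357, CG13559 and CG1648, are known here only by number. CG6357 (9727580 to 9729248 of 2R) had 3.83 and 4.51 FPKM in controls and 226 and 280 under PJ34, and rose by 5.61 ± 0.65 (limma, adjusted p 0.000349). CG13559 had 1.76 and 39.7 FPKM in the controls, 218 and 307 under PJ34, and 42.5 and 42.8 under PARP1 KD, and rose by 4.61 ± 0.89 (limma, adjusted p 0.0341). CG1648 had 9.88 and 18.8 FPKM in controls and 139 and 170 under PJ34, and rose by 3.40 ± 0.63 (limma, adjusted p 0.0258). In all 12 genes both PJ34 libraries lay above both PARP1 KD libraries too. Each also passed as higher in the direct test against PARP1 KD, as did 2.35% of all genes tested. That test uses the same PJ34 libraries by which the 12 were chosen, so passing it is no separate support. Of the 15 called genes, 8 were called again without control library 1: TotM, CG6357, CG4793, TpnC4, CG41562, CG40813, Arpc3B and rpr. CG13559, CG1648, Obp99c and lectin-28C were not (adjusted p from 0.298 to 0.559), nor were the 3 lower genes (0.228 to 0.359). Without control library 2, CG9416 was not called (adjusted p 0.112) and the other 14 were. All 15 were called from PJ34 library 1 against both controls. Loci of 6 of the 15 overlap another gene.

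**Figure D2:**
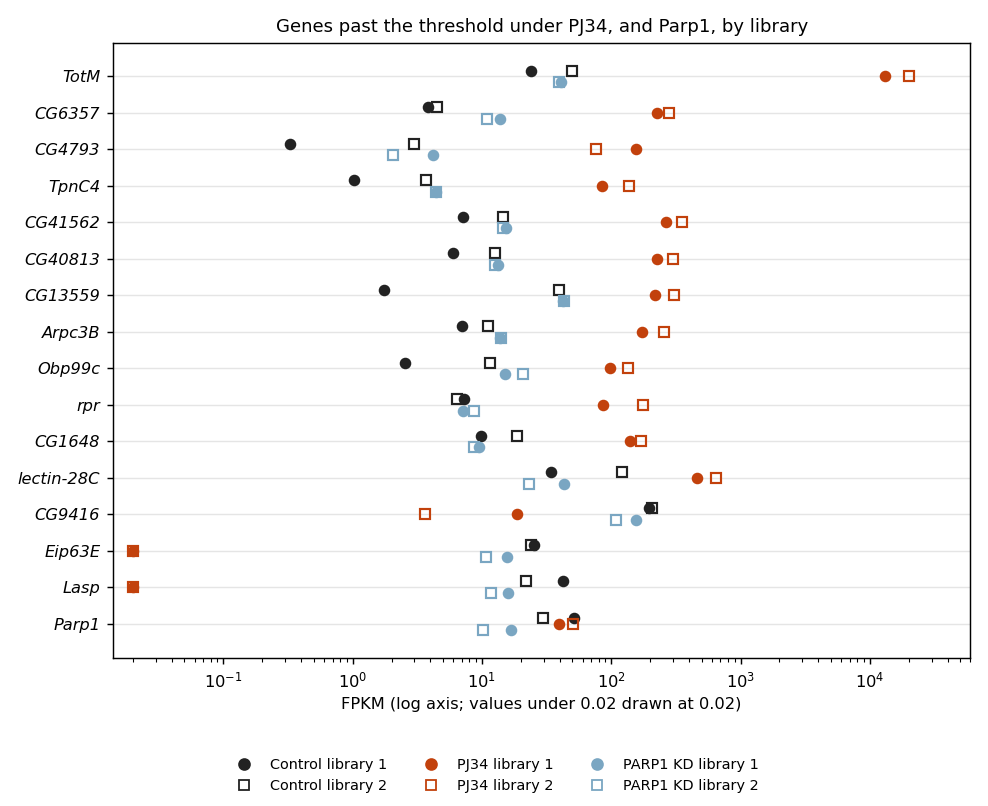
FPKM in each of the 6 libraries (log axis) for the 12 genes that rose and the 3 that fell under PJ34, and for Parp1. Each point is 1 library. The PJ34 points of TotM, at 12990 and 20231 FPKM, stand far to the right of all other points, and Eip63E and Lasp, listed at 0 in both PJ34 libraries, are drawn at the left edge.

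Of the 3 genes that fell, 2 were listed at exactly 0 under PJ34. CG9416 (15254745 to 15260747 of 2R) had 196 and 206 FPKM in controls and 18.6 and 3.61 under PJ34, and fell by 4.41 ± 0.71 on the log2 scale (limma, adjusted p 0.00748). PARP1 KD values were 156 and 109 FPKM, between the other groups. Lasp, which encodes an actin-binding LIM and SH3 domain protein, had 42.6 and 21.9 FPKM without treatment, 15.8 and 11.7 under PARP1 KD, and was listed at 0 in both PJ34 libraries (limma, adjusted p 0.0258). Eip63E, a cyclin-dependent kinase gene, had 25.3 and 23.8 FPKM without treatment, 15.7 and 10.8 under PARP1 KD, and was listed at 0 in both PJ34 libraries (limma, adjusted p 0.0284). A value of exactly 0 can be a failed estimate in tables of this kind, so no fold is given. In all, 8 genes of those tested were listed at 0 in both PJ34 libraries. Among them were also for, a cGMP-dependent protein kinase (16.9 and 9.88 FPKM in the controls), CG3726 (11.7 and 15.8 FPKM) and rut, an adenylyl cyclase (6.98 and 1.69 FPKM), none of which passed the threshold.

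Immune effector genes were compared next, and none of those described here passed the threshold. S2 cells carry both humoral pathways of the fly: Toll, which drives antifungal peptides such as Drs (drosomycin) and the bomanins, and Imd, which drives diptericins, attacins, cecropins and related peptides. Drs had 303 and 28.2 FPKM in the controls, 696 and 1443 under PJ34, and 17 and 19.1 under PARP1 KD. Both PJ34 libraries lay above both controls, with a difference of 3.41 ± 0.78 that missed the threshold (limma, adjusted p 0.0983), while the direct difference from PARP1 KD was 5.72 (adjusted p 2.99e-07). BomS1, a bomanin, had 0.193 and 0 FPKM in controls and 1.71 and 3.73 under PJ34 (limma, adjusted p 0.185). It entered the comparison only through its PJ34 values, so its position above the controls says nothing about Toll genes. Upstream, PGRP-SA, the secreted receptor that senses Gram-positive peptidoglycan for Toll, had 143 and 92.2 FPKM in controls and 18.5 and 17.5 under PJ34 (difference -2.61 ± 0.62, limma, adjusted p 0.105). Of the 14 Toll pathway genes tested, 2 (14.3%, BomS1 included) lay above and 5 (35.7%) below both controls, against 13.4% and 53.6% of all genes. In limma 0 passed the threshold. At an unadjusted p of at most 0.05, 2 were higher (BomS1 included) and 3 lower, against 311 and 1028 of all 7315 genes. The median difference of the list was -0.59 (all genes -1.08) and, in PJ34 library 1 alone, 0.53 (all genes -0.43).

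All 13 Imd-type peptide genes tested were at their highest in control library 1 except CecC. DptB, a diptericin, had 5667 and 60.5 FPKM in controls and 8.22 and 15.4 under PJ34, and AttB, an attacin, had 1274 and 19.9 FPKM against 4.496 and 6.487. Dro (drosocin) had 362 and 5.47 FPKM in the controls against 1.13 and 0.750 under PJ34. In these genes the controls differed from each other by far more than PJ34 differed from control library 2. Both PJ34 libraries lay below both controls in 8 of the 13 genes, and in 0 of 13 above, against 53.6% and 13.4% of all genes. The median difference of the list was -2.76 and shrank to -0.41 without control library 1, where the median of all genes was -0.82. It was -5.52 without control library 2. PARP1 KD values of DptB, 41.6 and 35.4 FPKM, lay below both controls and above both PJ34 libraries. PGRP-SD, a secreted recognition protein, had 171 and 65.8 FPKM in controls and 16.56 and 22.02 under PJ34. The 18 receptors and signalling genes of the Imd pathway had 0 members above and 9 below both controls, with a median of -1.02 close to that of all genes. Rel, the NF-kappaB factor at the end of that pathway, had 104 and 35.9 FPKM in controls and 20.4 and 2.90 under PJ34.

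The JAK/STAT genes, whose pathway acts upstream of Turandot genes in the fat body of flies, were also counted. Of 11 tested, 1 (9.09%) lay above both controls and 4 (36.4%) lay below, against 13.4% and 53.6% of all genes. The gene above was the ligand gene upd3, with 2.48 and 0.505 FPKM in the controls and 3.69 and 2.52 under PJ34. The transcription factor Stat92E had 64.2 and 54.4 FPKM in controls and 41.9 and 10.7 under PJ34, and the feedback inhibitor Socs36E had 33.7 and 19.9 FPKM in controls and 67.8 and 23.8 under PJ34. The groups were separated for Stat92E and overlapped for Socs36E, and neither difference passed the threshold.

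**Figure D3:**
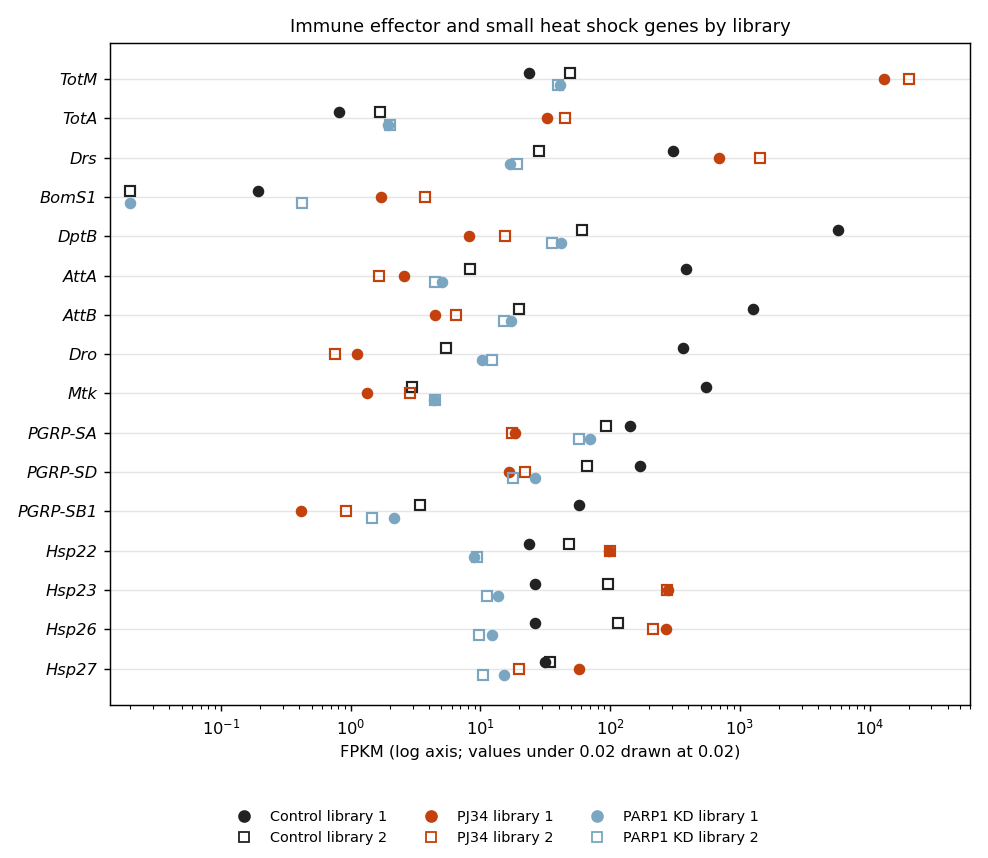
FPKM in each library (log axis) for Turandot genes, Toll and Imd effector and recognition genes, and small heat shock genes. Each point is 1 library. For DptB, AttA, AttB, Dro and Mtk control library 1 is the only library at the far right (5667 FPKM for DptB), whereas for TotM, TotA and Drs both PJ34 libraries are the highest points.

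Small heat shock genes, which encode chaperones that hold unfolded proteins, lay on the high side under PJ34. Hsp23 had 26.2 and 97.0 FPKM in the controls, 279 and 277 under PJ34, and 13.7 and 11.3 under PARP1 KD. Its difference from control was 2.43 ± 0.61 (limma, adjusted p 0.120) and its difference from PARP1 KD was 4.37 (adjusted p 4.63e-05). Hsp26 had 26.4 and 115.1 FPKM in the controls, 271 and 215 under PJ34, and 12.3 and 9.76 under PARP1 KD. Hsp22 had 23.6 and 48.3 FPKM in the controls, 98.5 and 99.2 under PJ34, and 8.98 and 9.34 under PARP1 KD. Of the 6 genes tested 4 lay above and 1 below both controls, and the median was 0.91, or 1.15 in PJ34 library 1 alone, while Hsp27 overlapped. In limma 0 of the 6 passed against control, and 3 passed as higher than PARP1 KD (all genes 2.35%). At an unadjusted p of at most 0.05, 3 were higher than control, against 311 of all 7315 genes. Of the 16 genes tested in the Hsp70 and Hsp90 list, 0 lay above and 5 (31.3%) below both controls, against 13.4% and 53.6% of all genes. The list's median was -0.55, or -0.06 in PJ34 library 1 and 0.74 after the length correction, each above that of all genes (-1.08, -0.43 and -0.04). The 6 Hsp70 copies, which cannot be told apart reliably by short reads, had up to 14.67 FPKM in the controls and up to 18.5 under PJ34.

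Of the 27 genes of hemocyte function tested, 3 (11.1%) lay above both controls and 12 (44.4%) below, near the shares of all genes (13.4% and 53.6%). Sr-CI, a scavenger receptor that binds bacteria, had 0.937 and 2.50 FPKM in controls and 33.9 and 15.0 under PJ34 (3.18 ± 0.98, limma, adjusted p 0.167). Its neighbour Sr-CIII had 0 and 0.0909 FPKM against 2.04 and 4.04, and Tep1, a complement-like thioester protein, had 0.134 and 0.264 FPKM against 10.4 and 2.07. Sr-CIII and Tep1 were under 1 FPKM in both controls and entered the comparison only through their PJ34 values, so their position says nothing about the list. Another scavenger receptor gene, crq, had 110 and 133 FPKM without treatment and 104 and 37.1 with PJ34, below both controls, and the groups overlapped for eater. Among the 12 genes below, drpr, the engulfment receptor Draper, had 110 and 58.9 FPKM in controls and 22.96 and 11.6 under PJ34. For the nimrod genes the controls were far apart: NimB3 had 0.192 FPKM in control library 1, 86.1 in control library 2, and 2.55 and 3.298 under PJ34.

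Serpins and serine proteases, which run extracellular immune cascades, were mixed. Of 15 tested, 5 (33.3%) lay above both controls and 6 (40%) below, beside 13.4% and 53.6% of all genes. Spn88Eb, a serpin, had 0.892 and 1.13 FPKM in controls and 69.1 and 12.8 under PJ34 (3.95 ± 1.03, limma, adjusted p 0.128). The protease gene snk had 0.266 and 0.902 FPKM against 5.57 and 5.40, and MP1 had 54.3 and 71.0 FPKM against 148 and 151. The gene snk averaged under 1 FPKM in the controls and entered the comparison only through its PJ34 values. Its position above the controls therefore says nothing about the list. Spn77Ba went the other way, with 90.04 and 83.1 FPKM in the controls and 21.5 and 6.43 under PJ34. Neighbouring genes also separated together: CG33460, CG33461 and CG33462, side by side on 2R with CG30088, lay at least 2-fold above both controls. So did CG16713, IM33 and CG10031 in a row on 2L. CG33460 reached 366 and 537 FPKM under PJ34, where the controls had 6.13 and 121, and CG16713 reached 24.7 and 58.5 against 1.001 and 0.730. Among the genes at least 2-fold above the controls, Tep1 and CG4793 are neighbours in the table's order, as are TotM and CG14022, the latter listed at 0 in both controls and at 2.55 and 3.94 FPKM under PJ34. CG16713, Tep1 and CG14022 also averaged under 1 FPKM in the controls and entered the comparison only through their PJ34 values.

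Detoxification genes were described in the same way. GstD5, a glutathione transferase, had 114 and 86.3 FPKM in the controls, 258 and 313 under PJ34, and 77.2 and 49.99 under PARP1 KD (1.51 ± 0.52 against control, limma, adjusted p 0.191). Of 24 glutathione transferases tested, 6 (25%) lay above and 7 (29.2%) below both controls, against 13.4% and 53.6% of all genes. Cyp4ac2 had 1.54 and 4.47 FPKM in controls and 39.3 and 53.4 under PJ34 (3.65 ± 0.90, limma, adjusted p 0.116), and its neighbour Cyp4ac3 had 0.257 and 0.405 FPKM against 3.41 and 3.44. Across 35 cytochrome P450 genes 4 (11.4%) lay above and 18 (51.4%) below, close to the shares of all genes. Cyp4ac3 averaged under 1 FPKM in the controls and entered the comparison only through its PJ34 values. The transporter gene MRP had 83.5 and 25.3 FPKM in controls and 10.5 and 2.40 under PJ34.

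The glycolysis genes lay low together. Of its 17 genes tested, 16 lay below both controls and 0 above, against 53.6% and 13.4% of all genes. Of the 17, 6 lay at least 2-fold below, against 4.4% of all genes. The median difference was -2.05, against -1.08 for all genes. It was -1.11 in PJ34 library 1 alone (all genes -0.43) and -0.92 after the length correction (all genes -0.04), so the list lay below the median of all genes on each scale. No member passed the threshold, and 14 of 17 were lower at an unadjusted p of at most 0.05, against 1028 of all 7315 genes. Glyp, glycogen phosphorylase, had 103 and 29.4 FPKM in controls and 13.98 and 1.45 under PJ34 (-3.21 ± 0.95, limma, adjusted p 0.167). Gpdh1, which makes glycerol phosphate from a glycolytic intermediate, had 71.6 and 62.0 FPKM against 18.9 and 10.3. Eno, enolase, had 491 and 356 FPKM against 179 and 49.3, and Pfk, phosphofructokinase, had 24.2 and 13.1 against 6.196 and 0.993. Ldh, lactate dehydrogenase, had 30.7 and 33.7 FPKM against 13.0 and 1.70. For these genes both PARP1 KD libraries lay above both PJ34 libraries, with 34.3 and 32.1 FPKM for Glyp and 12.9 and 11.6 FPKM for Pfk. The single gene that overlapped was PyK, pyruvate kinase, with 247 and 92.6 FPKM in the controls and 128 and 17.9 under PJ34.

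Transcripts of the mitochondrial genome lay high. All 13 protein genes of the mitochondrial genome lay above both controls, against 13.4% of all genes, with log2 differences from 1.36 to 2.91. None passed the threshold (limma, adjusted p from 0.105 for ATP8 to 0.324 for ND6). COX1, a core subunit of cytochrome oxidase, had 1677 and 5350 FPKM in the controls, 8911 and 14387 under PJ34, and 4932 and 6430 under PARP1 KD. ATP8, of the ATP synthase, had 15.0 and 11.8 FPKM in controls and 62.1 and 182 under PJ34. The 13 genes together took 1.41% and 3.05% of all FPKM in the controls, 5.25% and 8.43% under PJ34, and 2.85% and 3.84% under PARP1 KD. The nuclear genes of oxidative phosphorylation lay on both sides: of 65 tested, 17 (26.2%) lay above and 40 (61.5%) below both controls, against 13.4% and 53.6% of all genes. Their median was -0.75 (all genes -1.08), or -0.57 after the length correction (all genes -0.04). blw, the alpha subunit of ATP synthase, had 394 and 131 FPKM in controls and 97.3 and 13.2 under PJ34. Of the 21 genes of the citric acid cycle, 15 (71.4%) lay below and 0 above. The median of that list was -1.69 (all genes -1.08), or -0.76 in PJ34 library 1 (all genes -0.43). Mitochondrial ribosomal proteins, encoded in the nucleus, had 25 of 73 (34.2%) above and 27 (37.0%) below, with a median of 0.01. Cytoplasmic ribosomal proteins had 21 of 84 (25%) above and 38 (45.2%) below, with a median of -0.46. These ribosomal genes are short, with median transcript lengths of 740 and 698 bases (all genes 1844), and after the length correction their medians were -0.12 and -0.57. Centring each library on its median adds the same amount to every gene's difference (median of all genes -1.08 before and 0.06 after), so the sign of a list's median has no meaning apart from that of all genes. On that centred scale cytoplasmic ribosomal and nuclear oxidative phosphorylation genes had medians of 0.68 and 0.39, above that of all genes, whereas after the length correction both lay below it.

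Genes of the extracellular matrix also lay low. S2 cells, like hemocytes, make collagen IV and laminin for basement membranes. Of 17 genes tested 14 (82.4%) lay below both controls and 0 above, against 53.6% and 13.4% of all genes, with a median of -2.44 (all genes -1.08). Their transcripts are long (median 5126 bases), and the median was -0.93 in PJ34 library 1 (all genes -0.43) and -1.01 after the length correction (all genes -0.04). mfas, midline fasciclin, had 167 and 110 FPKM in the controls, 33.0 and 3.33 under PJ34, and 130 and 110 under PARP1 KD. LanB1, a laminin chain, had 366 and 241 FPKM in controls and 116 and 16.9 under PJ34, and Col4a1, a collagen IV chain, had 633 and 808 FPKM against 376 and 39.0. In the direct comparison 7 of the 17 passed as lower under PJ34 than under PARP1 KD, and 0 as higher, against 3.39% and 2.35% of all genes. That comparison was not corrected for length, and PJ34 library 2 was low in long transcripts.

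Signalling lists differed in their share below the controls, which was 53.6% for all genes. It was 35.7% for Toll, 36.4% for JAK/STAT, 50% for Imd, 76.9% for the joint list of Notch, Wnt, Hedgehog and EGFR genes and 85.7% for JNK. The joint list had a median of -1.36 (all genes -1.08), or 0.06 after the length correction (all genes -0.04). In the JNK stress pathway 12 of 14 genes lay below both controls and 0 above. The median was -1.81 (-0.98 in PJ34 library 1, -0.45 after the length correction), against -1.08, -0.43 and -0.04 for all genes. egr, the fly TNF ligand, had 142 and 178 FPKM in controls and 46.6 and 13.1 under PJ34, and its receptor gene wgn had 62.6 and 58.1 FPKM against 11.3 and 2.78. Downstream, the kinase gene bsk had 70.6 and 46.8 FPKM against 27.2 and 8.55, and the phosphatase gene puc, a target of the pathway, had 29.0 and 32.4 against 14.9 and 3.34. In EGF receptor signalling, aos, a secreted inhibitor, had 74.4 and 143 FPKM in controls and 18.6 and 11.2 under PJ34 (-2.75 ± 0.66, limma, adjusted p 0.109), and PARP1 KD values lay between, at 40.8 and 31.6. The mesoderm genes twi, a transcription factor, and htl, an FGF receptor, had 59.3 and 77.97 FPKM and 49.3 and 54.2 FPKM in the controls, against 11.4 and 3.73 and against 6.28 and 2.12 under PJ34. For twi the PARP1 KD values, 94.2 and 96.3 FPKM, lay above both controls. In metabolism beyond sugar, bmm, the triglyceride lipase Brummer, had 42.6 and 50.1 FPKM in controls and 11.2 and 2.30 under PJ34, and the insulin-like peptide gene Ilp6 had 126 and 60.2 against 21.2 and 7.04.

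Among nuclear machineries, DNA replication genes had 29 of 35 (82.9%) below and 0 above both controls, against 53.6% and 13.4% of all genes. Their median was -1.57 (-0.80 in PJ34 library 1 and -0.45 after the length correction), against -1.08, -0.43 and -0.04 for all genes. Nuclear transport and pore genes had 22 of 29 (75.9%) below and 0 above, with a median of -1.69 (-0.75 and -0.43). PCNA, the sliding clamp, had 275 and 225 FPKM in controls and 104.8 and 42.0 under PJ34, and RnrS, the small subunit of ribonucleotide reductase, had 159 and 156 against 69.8 and 23.1. Of 38 DNA damage response and repair genes 2 lay above and 20 below (median -1.12), and of 38 cell cycle genes 0 and 24 (median -1.43). Of the splicing factors, the study's interest, SR factors had 1 of 15 above and 8 below (median -0.74). The hnRNP genes had 0 of 17 and 10 (median -1.46), and Sm ring and snRNP genes 7 of 37 and 21 (median -1.30). Only the SR median lay above that of all genes (-1.08). After the length correction these medians were -0.21, -0.21 and -0.31 (all genes -0.04). LSm7, of the ring that binds U6 RNA, had 91.6 and 145 FPKM in controls and 392 and 577 under PJ34 (2.04 ± 0.53, limma, adjusted p 0.128), while Hrb87F, an hnRNP, had 182 and 66.1 FPKM against 47.1 and 8.31. Proteasome genes had 5 of 33 above and 21 below (median -1.36), and 7 passed as lower than under PARP1 KD (all genes 3.39%). Of 50 chromatin remodelling and Polycomb genes 2 lay above and 30 below (median -1.46). Among those above was pho, which recruits Polycomb complexes to DNA. It had 30.3 and 32.7 FPKM in the controls, 89.6 and 109 under PJ34, and 15.3 and 9.49 under PARP1 KD. Caf1-55, among those below, had 131 and 44.8 FPKM in controls and 39.1 and 6.70 under PJ34. Of 21 genes of the RNA interference and microRNA machinery 3 lay above and 9 below (median -1.43). Above was AGO3, an Argonaute of the piRNA pathway of the germline, with 1.08 and 4.16 FPKM in controls and 22.6 and 27.3 under PJ34. Below was Tudor-SN, with 162 and 74.8 FPKM against 48.2 and 8.80.

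**Figure D4:**
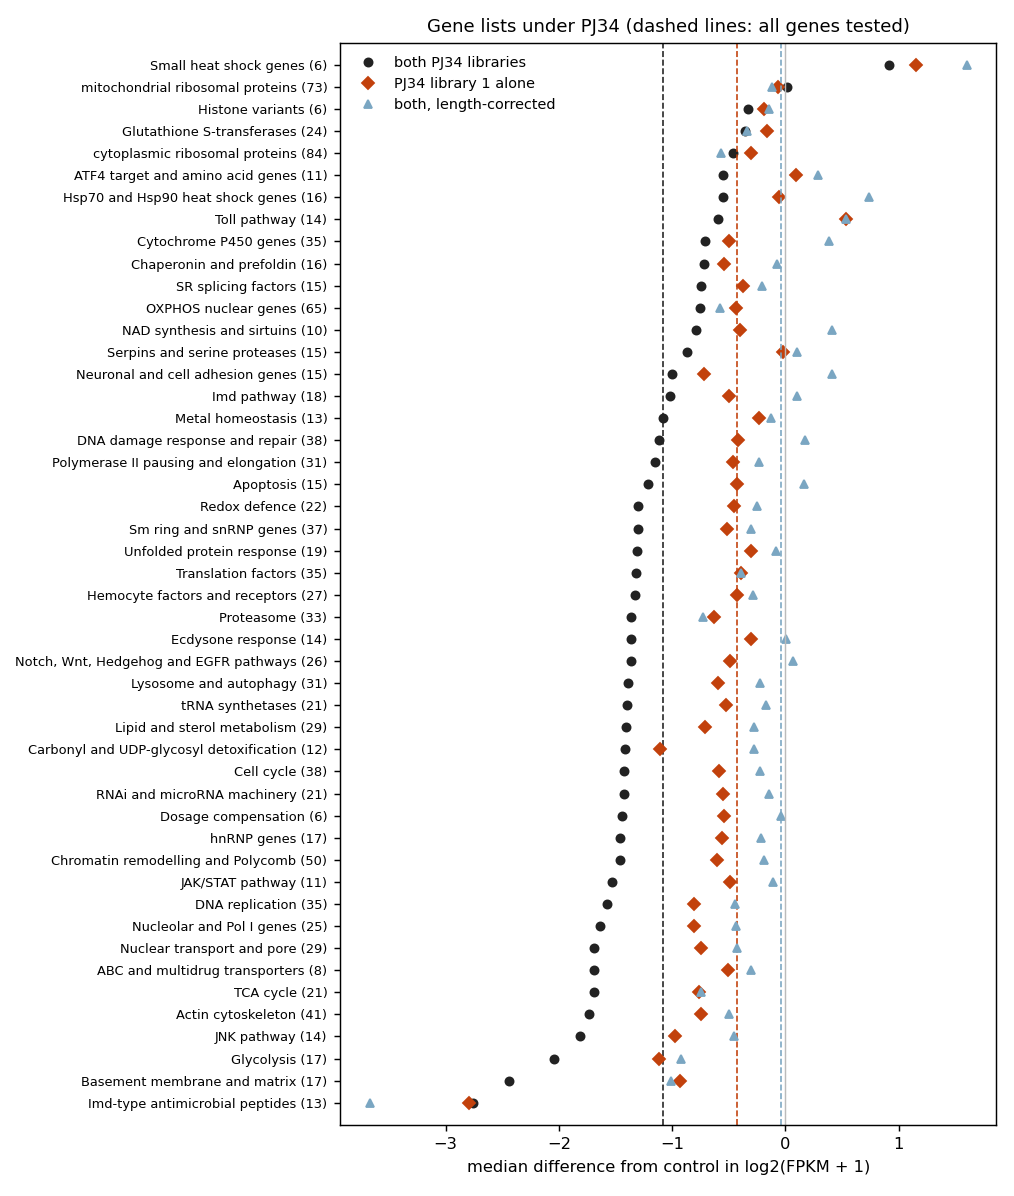
Median difference of PJ34 from control in log2(FPKM + 1) for each gene list with at least 6 genes tested (number in brackets), from both PJ34 libraries, from PJ34 library 1 alone and after the length correction. Dashed lines mark the medians of all genes, -1.08, -0.43 and -0.04. Small heat shock genes lie to the right of their lines, and glycolysis, basement membrane and Imd-type peptide genes to the left.

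The separated genes were also described by transcript length and chromosome. Length is tied to their choice, since PJ34 library 2 was low in long and high in short transcripts and the 17 His4 copies are short. Median transcript length was 881 bases in the 222 genes at least 2-fold above the controls, 2093 in the 322 genes below and 1844 in all genes tested. In PJ34 library 1 alone the values were 1041 and 1908 bases. Of the 217 higher genes with a length, 128 (59.0%) had transcripts under 1000 bases, against 18.2% of all genes. Chromosome 4, a small chromosome with much heterochromatin, held 10 of the 222 genes (4.505%) and 0.752% of all genes tested. Of its 55 genes tested, 24 lay above and 10 below both controls, and their median difference was 0.20 although their transcripts are long (median 3345 bases). Arf4, a small GTPase, had 152 and 164 FPKM in the controls, 411 and 651 under PJ34, and 137 and 99.3 under PARP1 KD. Genes on heterochromatic and unplaced scaffolds had 29 of 65 above and 19 below, with a median of 0.27. On the X chromosome and on each arm of chromosomes 2 and 3, 10.3% to 15.6% of genes lay above and 51.6% to 55.6% below.

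**Figure D5:**
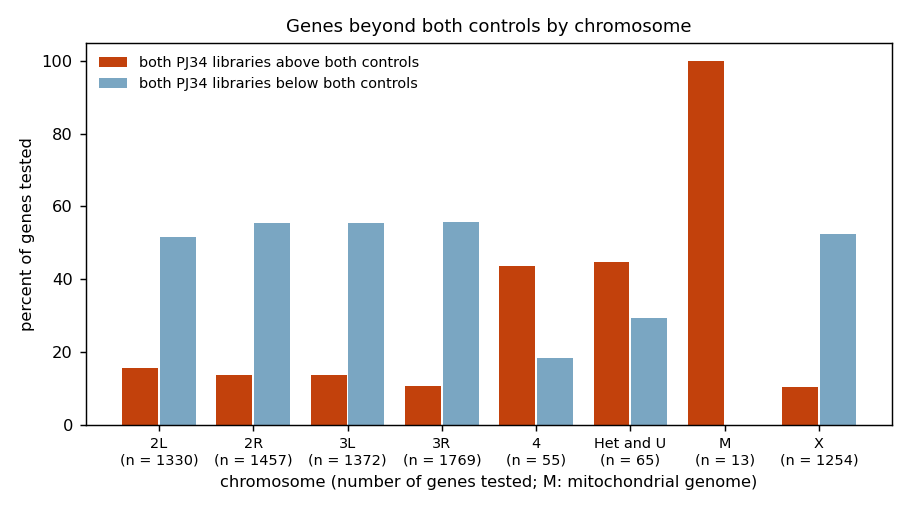
Percent of the genes tested on each chromosome for which both PJ34 libraries lay above, or below, both controls. Bars start at 0 and n is the number of genes tested. On chromosome 4 and on heterochromatic and unplaced scaffolds 43.6% and 44.6% of genes lay above, on the mitochondrial genome 100%, and on the other chromosomes 10.3% to 15.6%.

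PJ34 was also compared with PARP1 KD directly, which sets inhibition of the enzyme beside knockdown of its transcript. The PARP1 KD cells also received double-stranded RNA, and no library of the series came from cells given a control RNA. Loss of PARP1 and the treatment with RNA therefore cannot be told apart in this comparison. Of the 7315 genes, 172 (2.35%) were higher and 248 (3.39%) lower under PJ34 at an adjusted p under 0.05 in limma, with a median difference of -0.66. TotM, Drs, lectin-28C, Hsp23 and Hsp26 were among those higher. yellow-f, of the yellow family of pigment proteins, had 545 and 492 FPKM under PJ34, 49.2 and 38.4 under PARP1 KD, and 116 and 108 in the controls (3.55 against PARP1 KD, limma, adjusted p 7.53e-05). Ribosomal protein genes were among those lower: 29 of 84 cytoplasmic ones passed as lower and 2 as higher, with no correction for length. The summed level of the 84 was not lower in both PJ34 libraries. It was 453166 and 570359 FPKM under PJ34, 469591 and 471618 under PARP1 KD, and 300902 and 427158 in the controls. RpL18 had 760 and 130 FPKM under PJ34, 3302 and 4027 under PARP1 KD, and 2147 and 1400 in the controls. Of 65 nuclear oxidative phosphorylation genes 17 passed as lower and 0 as higher, and on chromosome 4, 12 of 55 passed as higher and 0 as lower. The median difference of PARP1 KD from control was -0.99 on chromosome 4 and -0.29 over all genes, so the knockdown values were themselves low there. Of the 222 genes at least 2-fold above the controls both PJ34 libraries lay above both PARP1 KD libraries in 220, and of the 322 below they lay below both in 311. The same PJ34 libraries enter both comparisons and had picked these genes, so high counts are in large part built in. The share over all genes was not counted, so the counts do not show that a change is particular to PJ34.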

How the data were processed

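RNA-seq of 6 S2 cell libraries was used as FPKM values per transcript that the authors deposited. The submitters' processing notes name TopHat2 2.0.10, Bowtie2 2.1.0.0, Cufflinks 2.1.1, Cuffdiff, CASAVA and the dm3 build, and no read counts were used. Values of the 21081 transcripts were summed to 14012 genes by CG number, and 13161 received a symbol. Genes averaging at least 1 FPKM in the 4 libraries were tested on log2(FPKM + 1), so fold changes of low genes are understated. limma 3.58.1 in R 4.3.3 was run with its trend option and Benjamini-Hochberg adjustment, 2 libraries against 2 (adjusted p under 0.05), and was tested on simulated data, where only very large changes were recovered. Python 3.11.15, numpy 2.4.6, pandas 2.3.3 and matplotlib 3.10.9 served for the rest. The length correction subtracted a lowess trend (span 0.3) on transcript length, known for 7130 of the genes tested. Coordinates are those of the deposited table in dm3, and 0 sample columns were left unassigned.

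Named genes were Parp1, Parg and Tnks, the 12 largest changes in each direction among called genes (filled to 6 by smallest p) and up to 3 separated members of each of 50 gene lists. Other genes were named after their values were seen. Members and lists were chosen with earlier results of these data known. Alternatives changed the pseudocount, filter, scaling, length correction, model and libraries. Promoter motifs were not analysed here.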

Additional observations from a re-analysis of the deposited data

How the results depend on the processing

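The comparison of PJ34 with control gave 15 calls (12 higher, 3 lower). The count was 13 (8 higher, 5 lower) with a pseudocount of 0.1 and 11 at a mean of at least 5 FPKM. It was 100 (41 and 59) with a pseudocount of 5, 52 (46 and 6) with quantile-normalized values, 50 (48 and 2) once medians were centred, 47 (42 and 5) with lengths corrected and 46 (35 and 11) in a fit to 6 libraries. It was 2 without the intensity trend, 2 on transcript rows and 0 of 11527 genes with no filter, where 1220 had an unadjusted p of at most 0.05. It was 1339 by unadjusted p and 4430 by a size of at least 2-fold alone. Leaving out 1 library gave 11 to 3639 calls: 11 without control library 1, 62 without control library 2, 3639 (378 and 3261) without PJ34 library 1 and 90 (52 and 38) without PJ34 library 2, the lone library being assumed to vary like the other group. Of the 15 called genes, 11 were called with lengths corrected, 13 with quantile-normalized values and 10 once medians were centred, and 0 changed sign under any alternative run.

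The 420 calls against PARP1 KD became 173 in a fit to 6 libraries, 1810 after the length correction, 929 after quantile normalization, and 1682 to 5504 with 1 PJ34 library left out. Alternatives for the genes at least 2-fold beyond both controls were chosen after seeing the data. The 222 higher genes became 141 with a pseudocount of 5, 375 with quantile-normalized values, 439 once medians were centred and 255 to 533 with 1 library left out. The 322 lower genes became 148, 122 and 65 under the same settings, 114 after the length correction and 337 to 4370 with 1 library left out. The cause of these differences was not tested.

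No paired analysis was possible because the PJ34 libraries were made at different doses and each is a replicate 1 in the labels, so the table's numbers pair no libraries. With 2 libraries per group, and PJ34 library 2 low in long transcripts, the test passed only very large differences, and failing it does not show that a gene was equal between groups.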
